A study of Mus musculus with 12 samples.

Results

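Cdk5r1, Rab33a, Cacna1h, Amz1 and Smtnl2 were 5 genes, of 17097 measured, that responded strongly to the iron chelator 2,2'-dipyridyl (DP) in wild-type mouse embryonic fibroblasts (MEFs) and less in MEFs without the coactivators CBP and p300. They were picked by symbol from earlier results on these same arrays, for a low level in vehicle, a rise with DP and a smaller rise in the mutant, so the values of the 5 genes are given here as descriptions, without p-values. All 8 probe sets that carry exactly 1 of the 5 symbols are described, 4 for Cdk5r1 and 1 for each of the other genes. Where a gene has several probe sets, the one with the highest mean over all arrays stands for it.

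The study measured total RNA of primary MEF cultures from embryos at e14.5 on 12 Affymetrix arrays, in 4 groups of 3. The groups were CBP/p300 null (dKO) cells given 100 µM DP for 3 h, dKO cells given the ethanol vehicle, wild-type (WT) cells given the same DP treatment and WT cells given ethanol. All cells were C57Bl/6 x 129Sv F1, passage 4, and all, the WT included, had received adenovirus expressing Cre recombinase at a multiplicity of infection of 100 in 3% oxygen. The dKO cells came from embryos homozygous for conditional alleles of both coactivator genes, which Cre inactivates. After 24 h at normal oxygen, DP or ethanol was added. The replicates were separate MEF lines, dKO lines 1, 5 and 6 and WT lines 3, 4 and 5, each given both treatments. The transcript of Crebbp, the CBP gene, fell by 0.76 ± 0.16 log2 in dKO under DP (adjusted p = 0.0022) and by 0.85 ± 0.16 in ethanol (adjusted p = 0.000992). Whether its probe set reads the floxed exons was not known, so the level is no check of the deletion. Xist was low and the Y-linked Eif2s3y high on every dKO array (at most 5.32 and at least 7.08 log2), whereas Xist was at least 10.3 and Eif2s3y at most 3.29 on every WT array, so embryo sex and genotype cannot be told apart. All 12 fibroblast markers averaged above the 95th percentile of the blank controls in every group. Col1a2 was barely above it in dKO, at 3.42 against 3.37 under DP and 3.46 against 3.45 in ethanol. All 12 markers were lower in dKO than in WT under DP, beside 16.9% of all genes, and in ethanol, beside 14.1%. Their summed signal lay between 14360 and 18610 in dKO DP, 14320 and 18370 in dKO ethanol, 43960 and 44900 in WT DP, and 41870 and 42500 in WT ethanol arrays. In such bulk RNA, fewer cells with a transcript and less transcript per cell cannot be told apart.

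DP chelates the iron that prolyl and asparaginyl hydroxylases need. With oxygen, these enzymes target the hypoxia-inducible factor (HIF) for degradation and block its binding to coactivators, so DP mimics low oxygen. CBP and p300 are paralogous lysine acetyltransferases that HIF and many other transcription factors recruit through their activation domains. The 5 genes belong to different families. Cdk5r1 encodes p35, the neuronal activator of the kinase CDK5. Rab33a encodes a small GTPase of the Golgi and of secretory vesicles. Cacna1h encodes the pore-forming subunit of the low-voltage-activated (T-type) calcium channel Cav3.2. Amz1 encodes archaemetzincin-1, a zinc metalloprotease, and Smtnl2 encodes smoothelin-like 2, a calponin-homology protein related to the smooth muscle protein smoothelin. Expression of Cdk5r1, Rab33a and Cacna1h is best known from neurons.

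The genes lie apart in the genome (GRCm38.p6). Cdk5r1 is at chr11:80477023-80481184 and Smtnl2 at chr11:72389163-72411713, 8.07 Mb away on the same chromosome. Rab33a is at chrX:48513663-48530240, Cacna1h at chr17:25374285-25436334 and Amz1 at chr5:140724127-140753312. The RefSeq promoter table (GRCm38.p6) held 3 of the 5 genes, Rab33a, Amz1 and Smtnl2. The 250 bases before their starts are shown because they were searched for the motif that HIF binds and for their CG content; capitals mark each CG dinucleotide. The windows are chrX:48519035-48519284 on the plus strand for Rab33a, chr5:140723877-140724126 on the plus strand for Amz1 and chr11:72411714-72411963 on the minus strand for Smtnl2. The Rab33a window lies before a start inside the annotated span of the gene, which begins further upstream.
Rab33a: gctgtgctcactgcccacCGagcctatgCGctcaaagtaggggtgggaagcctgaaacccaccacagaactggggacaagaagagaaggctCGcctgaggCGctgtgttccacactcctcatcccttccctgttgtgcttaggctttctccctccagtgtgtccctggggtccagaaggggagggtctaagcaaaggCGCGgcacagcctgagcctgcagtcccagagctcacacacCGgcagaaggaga
Amz1: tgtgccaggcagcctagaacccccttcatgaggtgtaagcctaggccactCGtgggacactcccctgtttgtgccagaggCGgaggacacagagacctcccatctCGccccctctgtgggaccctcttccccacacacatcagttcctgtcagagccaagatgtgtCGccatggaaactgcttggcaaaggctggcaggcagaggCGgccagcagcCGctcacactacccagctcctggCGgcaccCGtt
Smtnl2: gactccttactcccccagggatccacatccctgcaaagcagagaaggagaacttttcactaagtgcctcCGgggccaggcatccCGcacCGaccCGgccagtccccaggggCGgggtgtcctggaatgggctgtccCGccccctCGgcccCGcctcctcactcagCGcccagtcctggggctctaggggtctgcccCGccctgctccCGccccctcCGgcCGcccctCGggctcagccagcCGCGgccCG
The Smtnl2 window held 17 CG dinucleotides, Amz1's 8 and Rab33a's 7, against a median of 6 over 32851 promoter windows of the same length. Neither HIF core, ACGTG nor GCGTG, was found on either strand of the 3 windows, while 38.6% of all windows held at least 1 of them. When the 50 bases after the start were added, Amz1 alone gained a match, a GCGTG whose first base was 13 bases into the transcript, and 43.8% of all windows then held a core. The core of the CREB motif (TGACG, in 17.8% of windows), the AP-1 motif (TGANTCA, 6.75%), the TATA box (TATAAA, 12.4%) and the full palindromic CRE (1.55%), which contains the CREB core, were likewise not found in the 3 windows. A window without a match says nothing of sites elsewhere.

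Values below are log2 RMA values, a scale on which 1 unit is a doubling. The level of probe sets with no target in the sample, taken as the 95th percentile of 20 blank controls and averaged over the arrays of a group, was 3.37 in dKO DP, 3.45 in dKO ethanol, 3.35 in WT DP and 3.42 in WT ethanol. A mean at or below it is called near blank, and a change that starts there is understated. Levels are compared between groups of arrays for 1 probe set, not between genes. Array medians lay between 3.87 and 3.98, each array correlated with the others of its group at a mean r of 0.989 to 0.997, and the ethanol arrays of dKO line 1 and WT line 5 had the lowest of these correlations. The number of arrays limits the precision.

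Cdk5r1 lay at 5.12, 5.28 and 4.93 in dKO lines 1, 5 and 6 under DP, and at 4.92, 4.87 and 5.08 in the same lines in ethanol. In WT lines 3, 4 and 5 it lay at 6.04, 6.02 and 6.21 under DP and at 3.90, 3.94 and 3.89 in ethanol. The WT DP arrays were the highest and the WT ethanol arrays the lowest, while the dKO arrays of both treatments overlapped and sat between them. DP minus ethanol was 0.15 ± 0.11 in dKO and 2.18 ± 0.11 in WT (SE, n = 3 arrays per group), so the dKO change was 6.95% of the WT change on the log2 scale.

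Rab33a lay at 5.58, 6.00 and 5.30 in dKO lines 1, 5 and 6 under DP, and at 4.27, 4.34 and 3.99 in ethanol. The WT lines 3, 4 and 5 gave 8.30, 8.48 and 8.62 under DP and 4.89, 4.71 and 5.03 in ethanol. No groups overlapped, and the lowest, dKO ethanol, averaged 0.75 above the blank level. The dKO cells under DP ended above WT cells in ethanol but far below WT cells under DP. DP minus ethanol was 1.43 ± 0.17 in dKO and 3.59 ± 0.17 in WT, a dKO change of 39.8% of that in WT.

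Cacna1h lay at 3.73, 3.68 and 3.08 in dKO lines 1, 5 and 6 under DP, and at 3.37, 3.31 and 3.00 in ethanol. Its values in WT lines 3, 4 and 5 were 6.82, 6.91 and 7.03 under DP and 4.38, 4.07 and 4.70 in ethanol. The dKO arrays overlapped between treatments and averaged 0.13 above the blank level under DP and 0.22 below it in ethanol, so a change in dKO would be understated. All 6 WT arrays lay above all 6 dKO arrays. DP minus ethanol was 0.27 ± 0.19 in dKO and 2.53 ± 0.19 in WT.

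Amz1 lay at 3.35, 3.36 and 3.34 in dKO lines 1, 5 and 6 under DP, and at 3.53, 3.11 and 3.18 in ethanol. WT lines 3, 4 and 5 had 5.21, 5.22 and 5.65 under DP and 2.99, 3.06 and 3.06 in ethanol. All groups but WT DP were near blank, so the WT change of 2.33 ± 0.13 is understated and the dKO change of 0.08 ± 0.13 is one between levels no higher than the blank controls. DP-treated WT arrays did not overlap with those of any other group.

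Smtnl2 lay at 6.81, 6.56 and 6.49 in dKO lines 1, 5 and 6 under DP, and at 3.72, 3.69 and 3.88 in ethanol. The 3 WT lines, 3, 4 and 5, had 7.64, 7.83 and 7.57 under DP and 3.55, 3.24 and 3.60 in ethanol. Both genotypes responded, from means of 0.32 above the blank level in dKO ethanol and 0.04 above it in WT ethanol. DP minus ethanol was 2.85 ± 0.12 in dKO, a 7.23-fold difference, and 4.22 ± 0.12 in WT, an 18.6-fold difference. The dKO change was thus 67.7% of the WT change, the largest share among the 5 genes. With starts this close to the blank level, the share is uncertain.

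**Figure D1:**
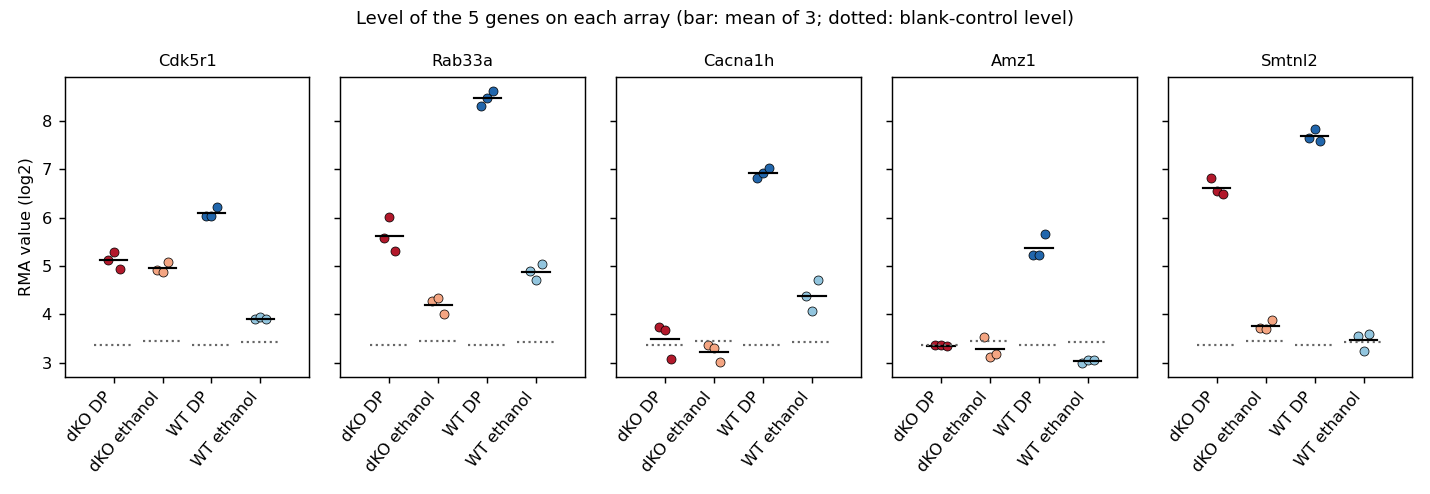
Log2 RMA values of the representative probe set of each gene (vertical axis) in the dKO DP, dKO ethanol, WT DP and WT ethanol arrays (points, 3 per group), with group means (bars) and the blank-control level of each group (dotted). WT DP is the highest group for all 5 genes; in dKO, Rab33a and Smtnl2 separate by treatment, at means of 5.63 and 6.62 under DP against 4.20 and 3.77 in ethanol, while the other 3 genes overlap between treatments.

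The description of these genes, silent and needing CBP/p300, thus matched the values of only some of them, and a need for the coactivators was not tested. Amz1 was the only 1 of the 5 with a mean near blank in WT ethanol. Smtnl2 came close to it, and Cdk5r1, Cacna1h and Rab33a averaged 0.49, 0.97 and 1.46 above the blank level there. Under DP, Cdk5r1, Cacna1h and Amz1 did not separate from ethanol in dKO, whereas all DP arrays of Rab33a and Smtnl2 lay above all ethanol arrays in dKO.

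The limma calls of the contrasts that chose the genes are given for reference and nothing is read from them. In the WT response all 5 were called higher, beside 3.05% of all genes, and their arrays did not overlap between treatments, beside 8.97% of genes that were higher without overlap. In the dKO response 2 of 5 were called higher, beside 1.01% of all genes, and the same 2 did not overlap, beside 6.32%. The response difference was called lower for all 5, beside 0.515% of all genes, and the lines did not overlap, beside 7.97%. Under DP all 5 were called lower in dKO than in WT, beside 16.9% of all genes, and did not overlap, beside 25.3%.

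The response was also taken within each line. DP minus ethanol of Cdk5r1 was 0.20, 0.41 and -0.15 in dKO lines 1, 5 and 6 and 2.14, 2.08 and 2.32 in WT lines 3, 4 and 5. For Rab33a it was 1.31, 1.67 and 1.31 in the dKO lines and 3.41, 3.76 and 3.59 in the WT lines. For Cacna1h it was 0.35, 0.37 and 0.08 in the dKO lines and 2.44, 2.84 and 2.33 in the WT lines. These 3 genes left a gap of at least 1.67 between the highest dKO and the lowest WT line. For Amz1 it was -0.18, 0.24 and 0.17 in the dKO lines and 2.22, 2.16 and 2.59 in the WT lines. For Smtnl2 it was 3.09, 2.86 and 2.61 in the dKO lines and 3.98 to 4.59 in the WT lines, the narrowest gap, at 0.89. The mean response differences, dKO minus WT, were -2.03 ± 0.15 for Cdk5r1, -2.16 ± 0.24 for Rab33a, -2.27 ± 0.27 for Cacna1h, -2.25 ± 0.19 for Amz1 and -1.36 ± 0.18 for Smtnl2. The median difference over all genes was -0.02. Without the ethanol arrays of dKO line 1 and WT line 5 the 5 differences lay between -2.35 and -1.45. The 3' minus 5' value of the beta-actin controls, a sign of RNA quality, lay between 0.48 and 0.60 in dKO DP, 0.40 and 0.45 in dKO ethanol, 0.28 and 0.38 in WT DP and 0.23 and 0.25 in WT ethanol arrays; its part in these differences was not tested.

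**Figure D2:**
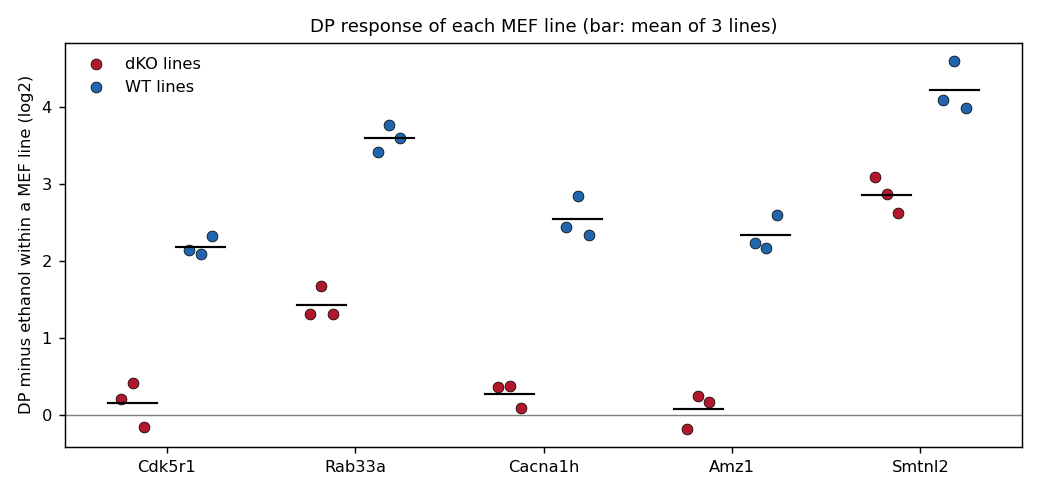
DP minus ethanol within each MEF line (vertical axis, log2) for the 5 genes, dKO lines left and WT lines right of each gene name, with the mean of 3 lines (bars). No dKO line reaches a WT line for any gene; Smtnl2 responds by 2.61 to 3.09 in the dKO lines and Amz1 by -0.18 to 0.24.

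The levels in ethanol were set side by side between genotypes. Both the WT and the dKO ethanol arrays entered the choice of the genes, through the low vehicle level and the smaller dKO response, so the differences are a description. In ethanol Cdk5r1 was higher in dKO than in WT, and Cacna1h and Rab33a were lower. Cdk5r1 averaged 4.96 ± 0.11 in dKO and 3.91 ± 0.03 in WT ethanol (SD, n = 3 each), a difference of 1.05 ± 0.11 (SE). Cacna1h averaged 3.23 ± 0.20 in dKO, near blank, and 4.39 ± 0.31 in WT, so its difference of -1.16 ± 0.19 understates the size. Rab33a averaged 4.20 ± 0.18 in dKO and 4.88 ± 0.16 in WT, a difference of -0.68 ± 0.17. The ethanol arrays of Cdk5r1, Smtnl2 and Amz1 were all higher in dKO without overlap, beside 21.2% of all genes. Those of Cacna1h and Rab33a were all lower without overlap, beside 18.8%. The difference of Smtnl2 was 0.30 ± 0.12, and that of Amz1 was 0.24 ± 0.13 between groups that were both near blank. By limma 3 of 5 were called, beside 33.6% of all genes, 1 of them higher, beside 19.5%, and 2 lower, beside 14.1%, and nothing is read from these counts. The ethanol level enters each response, which is DP minus ethanol, and its part in the smaller dKO response of Cdk5r1 was not tested. Without the ethanol arrays of dKO line 1 and WT line 5 the differences were 1.06 for Cdk5r1, -1.07 for Cacna1h and -0.64 for Rab33a. Those of Smtnl2 and Amz1 were then 0.39 and 0.12, and with cyclic loess 0.17 and 0.27.

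Rab33a is X-linked, and the WT and dKO lines differed in the sex markers. Of 597 measured X-linked genes, 12.9% were called lower in dKO in ethanol, against 14.2% of 16446 autosomal genes. The median difference in ethanol was -0.006 for X-linked and -0.009 for autosomal genes. The difference of the DP responses was called, in either direction, for 0.838% of X-linked and 0.553% of autosomal genes. For Rab33a alone the part of sex was not tested.

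The 4 Cdk5r1 probe sets did not read alike. The set 1433450_PM_at, the other one with signal, lay at 4.79, 4.30 and 4.08 in dKO lines 1, 5 and 6 under DP and at 4.40, 4.34 and 3.99 in ethanol. In WT lines 3, 4 and 5 it lay at 5.24, 5.53 and 5.84 under DP and at 4.06, 3.55 and 4.20 in ethanol. Its DP arrays overlapped with its ethanol arrays in dKO but not in WT, with DP minus ethanol of 0.15 ± 0.22 in dKO and 1.60 ± 0.22 in WT. The ethanol difference of this set between dKO and WT was 0.31 ± 0.22, with overlapping groups, so the higher ethanol level in dKO rests on the set 1433451_PM_at (1.05 ± 0.11 there). The sets 1421124_PM_at and 1421123_PM_at were near blank in 3 and 4 of the 4 groups and responded in WT by 0.21 ± 0.12 and -0.07 ± 0.16. With the mean of all 4 sets the response difference was -0.88, against -2.03 for the representative set, and the ethanol difference was 0.28, against 1.05.

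**Figure D3:**
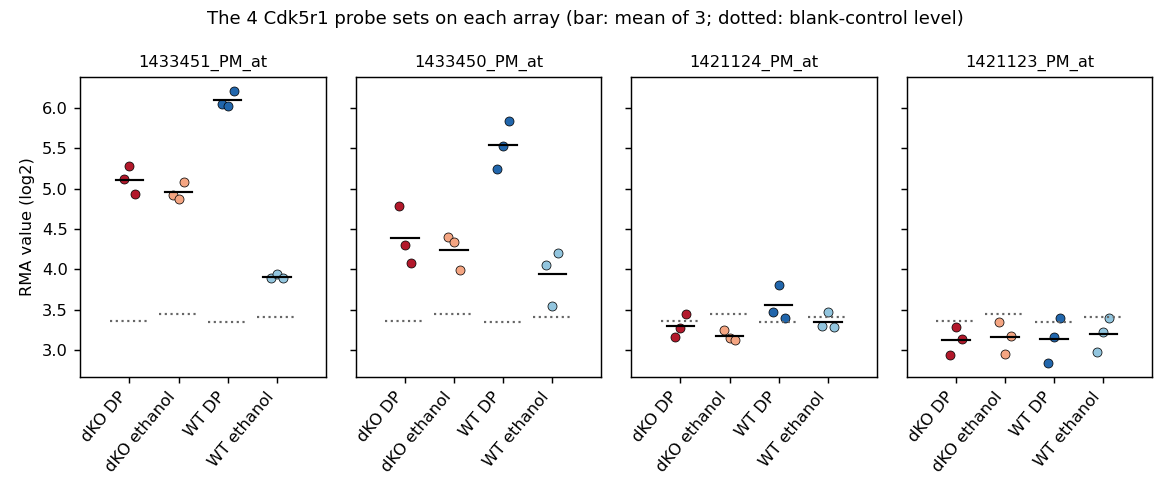
Log2 RMA values (vertical axis) of the 4 Cdk5r1 probe sets in the 4 groups (points, 3 arrays each; bars, means; dotted, blank-control level). The first 2 sets are highest in WT DP, at means of 6.09 and 5.54, and the last 2 stay around the blank level in all groups.

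No measured paralog of the 5 genes was called for DP. Of 7 paralogs 5 had probe sets of their own, and limma called none for DP in dKO, for DP in WT or for the difference of the responses (0, 0 and 1 at an unadjusted p under 0.05). For Rab33b, the paralog of Rab33a, DP minus ethanol was 0.02 ± 0.12 in dKO and -0.11 ± 0.12 in WT. For Amz2, the paralog of Amz1, it was -0.15 ± 0.13 in dKO and -0.09 ± 0.13 in WT. Cdk5r2, which encodes the p35 relative p39, and Smtnl1, the paralog of Smtnl2, had means of at most 3.52 in any group, close to the blank level. For Cacna1g, the gene of the other T-type channel subunit with a probe set, it was -0.09 ± 0.20 in dKO and -0.23 ± 0.20 in WT. Its ethanol level, like that of Cacna1h, was lower in dKO than in WT, at means of 4.02 and 6.46 and with a difference of -2.44 ± 0.20 (adjusted p = 1.78e-06).

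Few genes of the wider families were called for DP. Of 17 measured voltage-gated calcium channel subunits other than Cacna1h, none was called for DP in dKO, for DP in WT or for the difference with limma (0, 1 and 1 at an unadjusted p under 0.05), while 3 were lower in dKO in ethanol, a share near the 14.1% of all genes, namely Cacna1g, the L-type subunit gene Cacna1c (-2.22 ± 0.17) and the auxiliary subunit gene Cacna2d3 (-0.46 ± 0.12). Of 17 measured genes for CDK5 and its partners, 1 fell with DP in WT, beside 1.67% of all genes. It was Nde1, a dynein regulator gene (-0.40 ± 0.10), and none of the 17 was called for DP in WT once lines were blocked. None of the 17 was called for DP in dKO or for the difference. At an unadjusted p under 0.05 by limma there were 3 for DP in dKO, 4 for DP in WT and 4 for the difference. For Cdk5 itself, the kinase that p35 activates, DP minus ethanol was -0.21 ± 0.10 in dKO and -0.18 ± 0.10 in WT, and in ethanol it was higher in dKO than in WT by 0.75 ± 0.10 (adjusted p = 9.64e-05), the 1 higher call of its list. The other 3 calls of that list in ethanol were lower, for Cdk18 (-0.97 ± 0.18), Cables1 (-0.55 ± 0.15) and Dpysl2 (-0.55 ± 0.10), so 1 of 17 was higher, beside 19.5% of all genes, and 3 were lower, beside 14.1%. Of 22 measured Golgi Rab GTPases and Rab33 partners, none was called for DP in WT or for the difference (4 and 1 at an unadjusted p under 0.05), and 1 was called for DP in WT once lines were blocked. In dKO, Rab39 rose by 0.79 ± 0.16 from near blank, beside 1.01% of all genes called higher, and Rab38 fell by 0.85 ± 0.14, beside 0.491% called lower. For Atg16l1, the autophagy gene whose product binds Rab33 proteins, DP minus ethanol was -0.02 ± 0.12 in dKO and 0.03 ± 0.12 in WT. Of 13 measured smoothelin, calponin and smooth muscle genes, none was called for either DP response or the difference (0 in each at an unadjusted p under 0.05). In ethanol 10 of them were lower in dKO than in WT, beside 14.1% of all genes, among them the calponin gene Cnn1 (-2.002 ± 0.19) and the smooth muscle myosin gene Myh11 (-2.08 ± 0.26), and 1, Tagln3, was higher, beside 19.5%.

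The nearest measured genes on the chromosome, 2 on each side of each gene, were examined next. Of these 20 neighbours 1 rose with DP in WT, beside 3.05% of all genes, and none was called in dKO (3 at an unadjusted p under 0.05). That gene was Spns2, which encodes the transporter that exports sphingosine-1-phosphate, 39.9 kb from Smtnl2. Spns2 lay at 4.17, 4.40 and 4.22 in dKO lines 1, 5 and 6 under DP and at 3.93, 4.03 and 4.09 in ethanol. In WT lines 3, 4 and 5 it lay at 5.53, 5.37 and 5.41 under DP and at 4.07, 4.02 and 3.79 in ethanol. The WT DP arrays stood above all others. DP minus ethanol of Spns2 was 0.24 ± 0.10 in dKO (adjusted p = 0.323). It rose by 1.48 ± 0.10 in WT (adjusted p = 1.48e-06). The difference of the responses was -1.23 ± 0.15 (adjusted p = 0.00145), the only 1 called among these 20 neighbours, beside 0.515% of all genes called lower. It was -1.19 (adjusted p = 0.0021) without the ethanol arrays of dKO line 1 and WT line 5. For Ggt6, which lies between Smtnl2 and Spns2, 23.5 kb from Smtnl2, DP minus ethanol was -0.02 ± 0.09 in dKO and 0.05 ± 0.09 in WT. The nearest genes of the other members were also not called for DP. For Aifm1, 0.1 kb from the annotated span of Rab33a, it was 0.10 ± 0.11 in dKO and 0.24 ± 0.11 in WT. For Myo1d, 0.9 kb from Cdk5r1, it was -0.17 ± 0.11 in dKO and -0.10 ± 0.11 in WT, and for Psmd11, on the other side of Cdk5r1, -0.05 ± 0.11 in dKO and -0.03 ± 0.11 in WT. For Brat1 and Gna12, on either side of Amz1, it was -0.06 ± 0.12 and -0.33 ± 0.12 in dKO and 0.09 ± 0.12 and -0.03 ± 0.12 in WT. Tpsg1, which overlaps Cacna1h at 1 end, had -0.06 ± 0.13 in dKO and -0.01 ± 0.13 in WT.

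**Figure D4:**
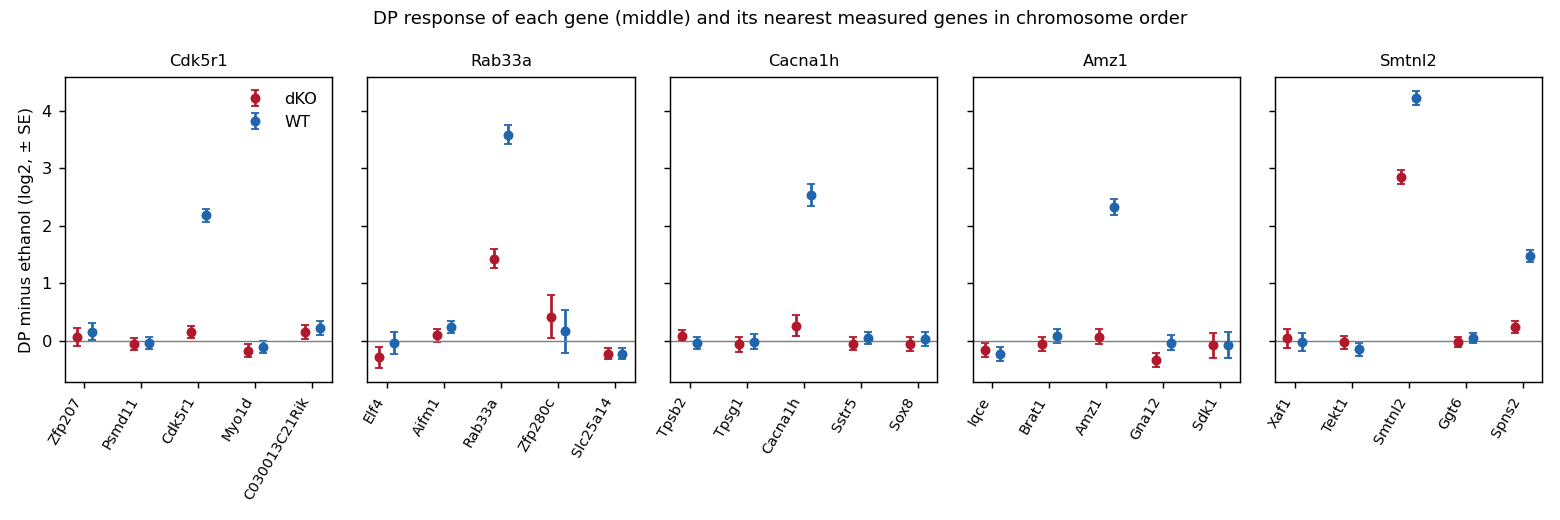
DP minus ethanol (vertical axis, log2, ± SE from limma, n = 3 arrays per group) in dKO (left point) and WT (right point) for each of the 5 genes, in the middle of its panel, and the 2 nearest measured genes on each side in chromosome order (positions are not to scale). Spns2 beside Smtnl2 is the neighbour with a WT response, at 1.48.

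Among all 220 genes called with a WT rise of at least 1 log2, Smtnl2 ranked 6th by size, Rab33a 10th, Cacna1h 28th, Amz1 33rd and Cdk5r1 42nd. Ordered from the lowest by the share of the WT change kept in dKO, Rab33a was the 95th and Smtnl2 the 153rd of these 220 genes. Cdk5r1 was the 17th. Amz1 and Cacna1h are given no rank, since near-blank levels enter their shares. The rank of Smtnl2 is uncertain, since its WT ethanol level lay close to the blank level. These ranks come from the values that chose the genes. Of 44 measured genes of a list of HIF targets, 36 rose with DP in dKO, beside 1.01% of all genes, and 32 in WT, beside 3.05%. In ethanol 34 of the 44 were called lower in dKO than in WT, beside 14.1% of all genes, and 3 higher, beside 19.5%. Under DP 29 were lower in dKO, beside 16.9%, and 2 higher, beside 18.5%. The median DP change of the list was 1.42 in dKO and 1.44 in WT, where the medians of all genes were -0.046 and -0.027. The response difference was called lower in dKO for 4 of them and higher for 5, beside 0.515% and 0.0468% of all genes, so Slc2a3, Car12, Pgf and Apln share the direction of the 5 genes and Pfkfb3, Slc16a3, Bnip3, Fam162a and Ak4 have the opposite one. Leaving out 1 array gave 5 to 11 calls in place of these 9, with 5 calls without the WT DP array of line 3, 4 or 5, the WT ethanol array of line 4 or the dKO ethanol array of line 5.

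**Figure D5:**
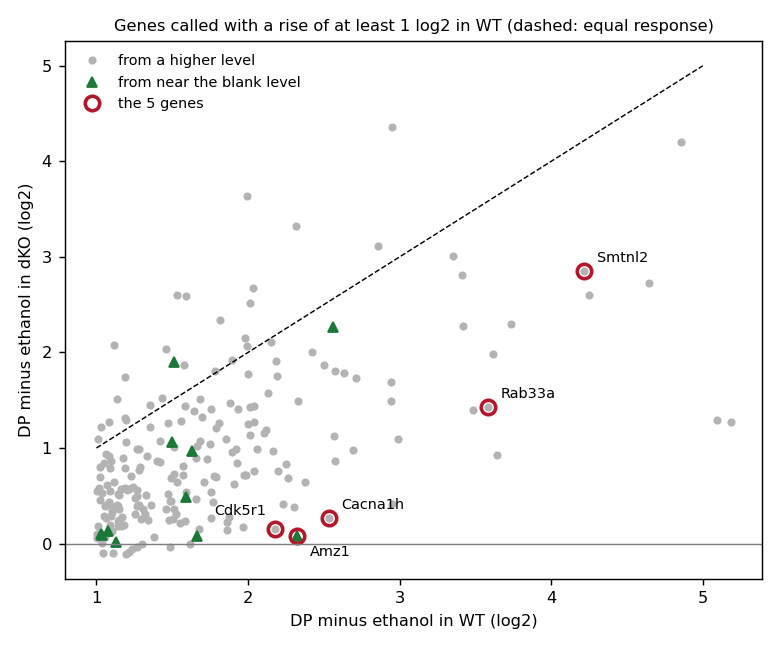
DP minus ethanol in dKO (vertical axis, log2) against that in WT (horizontal axis, log2) for the 220 genes called with a WT rise of at least 1, with the 5 genes circled, genes that start near the blank level as triangles and equal responses dashed. Smtnl2 lies nearest to the dashed line among the 5, with 2.85 in dKO and 4.22 in WT, and Amz1 lies near 0 in dKO.

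The 5 profiles were not the same profile. Across the 12 arrays, which share 4 group means, Pearson's r between members ran from 0.594 for Cdk5r1 and Cacna1h to 0.941 for Rab33a and Amz1. The genes most like the mean standardized profile of the 5 were Selenbp1 and Selenbp2, near-identical selenium-binding protein genes (r = 0.991 and 0.99), Fam117b (0.99), the RhoA regulator gene Ripor2 (0.986) and Dpf1, a subunit gene of neuronal chromatin-remodelling complexes (0.985). By rho in place of r, 1 of the 10 genes named next, Thra, stayed among the nearest. Nearest to Cdk5r1 were Phactr4 (0.986) and the cell-cycle inhibitor gene Cdkn1b (0.971), and nearest to Rab33a were the carbonic anhydrase gene Car12 (0.987) and the growth factor gene Pgf (0.985). Nearest to Cacna1h were the thyroid hormone receptor gene Thra (0.989) and Triobp (0.98). Nearest to Amz1 were Nags, the N-acetylglutamate synthase gene (0.978), and Spry3 (0.975), and nearest to Smtnl2 were Ppp1r3b, a glycogen-targeting phosphatase subunit gene (0.99), and Rnf217 (0.988). Thra, for example, averaged 6.41 in dKO DP, 6.15 in dKO ethanol, 7.71 in WT DP and 6.77 in WT ethanol, the same order of groups as Cacna1h.

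Since several of the 5 genes are known from neurons or muscle, markers of those cells were summed. Of 11 measured neuronal markers none was called for either DP response or the difference (0 in each at an unadjusted p under 0.05), and 2 were near blank in all groups. Their summed signal lay between 153 and 166 in dKO DP, 170 and 201 in dKO ethanol, 703 and 745 in WT DP and 766 and 954 in WT ethanol arrays. In ethanol Stmn2 fell by 3.86 ± 0.17, Tubb3 fell by 3.51 ± 0.30 and Gap43 fell by 3.44 ± 0.13 in dKO, 3 of 11 beside 14.1% of all genes. Stmn2, Tubb3 and Gap43, at means of 8.38, 7.76 and 7.63 in WT ethanol, made up most of the WT sums. The next highest marker there, Syn1, averaged 4.89. Nefl was higher, 1 of 11 beside 19.5% of all genes, and the remaining markers were not called in ethanol. Snap25 and Elavl4 were near blank in all groups. Of 10 skeletal muscle markers none was called for either DP response or the difference (0, 1 and 1 at an unadjusted p under 0.05), and 4 were near blank in all groups, Myod1 among them. The skeletal actin gene Acta1, at means of 8.42 in dKO DP, 8.82 in dKO ethanol, 11.62 in WT DP and 11.62 in WT ethanol, made up most of their sum, since no other marker of the list exceeded 4.10 in any group. Their sums lay between 318 and 566 in dKO DP, 419 and 765 in dKO ethanol, 2623 and 3663 in WT DP and 3251 and 3274 in WT ethanol arrays. In both genotypes the neuronal sums under DP lay below those in ethanol, and the muscle sums of the treatments overlapped. Both sums were lower in every dKO than in every WT array, and their part in the genotype differences of the 5 genes was not tested. Of 8 epithelial markers 1, the keratin gene Krt19, rose with DP, by 1.43 ± 0.17 in dKO, beside 1.01% of all genes called higher, and by 2.01 ± 0.17 in WT, beside 3.05%. The summed epithelial signal lay between 299 and 344 in dKO DP, 175 and 214 in dKO ethanol, 699 and 813 in WT DP and 384 and 423 in WT ethanol arrays. This sum was thus higher with DP in both genotypes, and the other 7 markers, Epcam and Cdh1 among them, were not called for DP. Of 8 macrophage markers, 5 were lower in dKO than in WT under DP, beside 16.9% of all genes, and 1 was higher, beside 18.5%. In ethanol 4 were lower, beside 14.1%, and 1 was higher, beside 19.5%. The lysozyme gene Lyz2 had differences of -3.59 ± 0.59 under DP and -3.41 ± 0.59 in ethanol, and Cd68 had 1.38 ± 0.29 and 1.53 ± 0.29 in the same order. The macrophage sum lay between 191 and 209 in dKO DP, 190 and 238 in dKO ethanol, 248 and 574 in WT DP and 214 and 698 in WT ethanol arrays, and its part in the genotype differences was not tested. No macrophage or endothelial marker, 8 in each list, was called for either DP response or the difference (0 of the macrophage and 1 of the endothelial markers at an unadjusted p under 0.05 in each).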

How the data were processed

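Total RNA of 12 cultures was hybridized to 1-colour Affymetrix arrays. Each of the 45141 deposited probe set values is a log2 summary by RMA, for which the submitters' processing notes name Affymetrix Expression Console 1.1. RMA subtracts background and equalizes the arrays' distributions before it combines the probes of a set, so a level is relative to the other arrays. After 104 controls were left out, 28898 listed exactly 1 symbol (28689 updated through the gene identifier), 551 listed several and 15588 none. The probe set of highest mean stood for each of 17097 genes; dim genes were kept.

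A single limma 3.58.1 model (R 4.3.3) gave each of the 4 groups a mean, without a block, over all 12 arrays. Calls needed p under 0.05 after Benjamini-Hochberg adjustment across the 17097 genes of a contrast. The 5 contrasts were DP against ethanol in dKO and in WT, their difference, and dKO against WT under DP and in ethanol. The ethanol contrast of the 5 genes was planned as a test, but its arrays entered the choice of the genes, so no p-value is given. Errors after ± are moderated SEs unless named SD. The fit was tested on simulated data. The members, lists and tests were chosen with earlier results of these data known. Named genes were the 5, up to 4 called or the 2 largest changes per list, called and nearest neighbours, the 5 most alike genes and 2 per member, and the 5 largest rises from near blank; the text leaves out some that the rule selects and adds a few with a known link to the 5 genes, such as Cdk5 and Atg16l1, chosen after their values were seen. Tables and figures were made in Python 3.11.15 (pandas 2.3.3; matplotlib 3.10.9; numpy 2.4.6).

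The MEF line number pairs DP and ethanol arrays within a genotype, per the labels; as a check, a line's deviations from both group means had an r over 8917 genes of 0.044 (dKO line 1), 0.322 (dKO line 5), 0.363 (dKO line 6), 0.425 (WT line 3), 0.056 (WT line 4) and 0.326 (WT line 5). Line 5 of WT and line 5 of dKO share a number only. Alternatives were the line as a block, cyclic loess, median centring, a filter on dim genes, the mean of probe sets or every probe set, an intensity trend, only the arrays compared and leaving out arrays.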

Additional observations from a re-analysis of the deposited data

Results flagged for a closer look

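The DP response differed between dKO and WT for the 5 described genes, by -2.03 for Cdk5r1, -2.16 for Rab33a, -2.27 for Cacna1h, -2.25 for Amz1 and -1.36 log2 for Smtnl2; this contrast chose the genes, so the values are a description with no p-value. By limma's test of the difference over all genes, the response of the neighbour gene Spns2 was smaller in dKO, by -1.23. Of the HIF targets, smaller responses in dKO were those of Slc2a3 (-2.09), Car12 (-2.71), Pgf (-1.65) and Apln (-1.43), and larger ones those of Pfkfb3 (1.41), Slc16a3 (0.96), Bnip3 (1.08), Fam162a (0.63) and Ak4 (1.65). The groups of 3 arrays were too small for a test of single outlying arrays.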

How the results depend on the processing

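For the 5 genes, the block, the intensity trend, fits of fewer genes or arrays and the omission of an array outside a contrast leave a difference of group means as it is by construction, so stability can be read only from the other alternatives. Among those, the mean of probe sets moved Cdk5r1, with a response difference of -0.88, a WT response of 0.98, a difference under DP of -0.60 and a difference in ethanol of 0.28 (1.05 with the representative set). The dKO response of Cacna1h was 0.48 without dKO DP line 6. The dKO response of Amz1, between levels near blank, changed sign without dKO ethanol line 5 (-0.0031; 0.08 with all arrays, and -0.0031 to 0.2071 over all single arrays left out). The MEF line as a replicate block cannot move the response differences (-2.03 for Cdk5r1), and under it no gene of the CDK5 list was called for DP in WT (0, against 1). Leaving out 1 array moved the response difference between -2.12 and -1.94 for Cdk5r1, -2.35 and -1.995 for Rab33a, -2.42 and -2.06 for Cacna1h, -2.33 and -2.11 for Amz1, and -1.46 and -1.26 for Smtnl2.

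Counts moved more. The dKO response had 142 called genes in a fit of only the arrays compared, against 256. Leaving out 1 array gave 153 to 326 genes in dKO (153 without dKO DP line 1, 160 without line 6) and 538 to 1010 in WT, against 808 (538 without WT DP line 4). Of the paralogs 1 was called in ethanol with the mean of probe sets or only the arrays compared, and 1 to 2 without 1 array. The main fit called 2 of 5, lower in dKO, beside 14.1% of all genes. CDK5 list calls in WT were 0 with cyclic loess or an intensity trend, 2 without dim genes or with the mean of probe sets, and 0 to 2 without 1 array; its response difference had 1 call without the ethanol arrays of dKO line 1 and WT line 5, and 0 to 1 without 1 array, against 0. Golgi Rab calls in WT were 1 with the block and 0 to 1 without 1 array, against 0. In ethanol they were 2 with cyclic loess and 5 to 9 without 1 array. The main fit called 5 of 22 in ethanol, all higher in dKO, beside 19.5% of all genes. HIF targets with a response difference numbered 5 to 11 without 1 array, against 9. Neighbours called in ethanol numbered 3 to 5 without 1 array, against 5 of 20. Of these 5, 3 were higher in dKO, beside 19.5% of all genes, and 2 lower, beside 14.1%. The cause was not tested. Near-blank rises numbered 8 and 12 with the 90th and 99th percentile of blank controls, against 11. Spearman's rho kept 3 of the 5 genes most like the mean profile, and 1 of the 10 named as nearest to single genes, Thra. Amz1 had no value in the fit without dim genes. Levels near blank limit what can be read for Amz1 and for Cacna1h in dKO.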

Other observations

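Of the 220 genes with a called WT rise of at least 1 log2, 11 started near the blank level in WT ethanol, Amz1 among them, and 209 started higher, the other 4 of the 5 described genes included. The largest rises from near blank were those of Proser2 (2.27 ± 0.17 in dKO and 2.56 ± 0.17 in WT), Amz1, the Sprouty-family gene Spry3 (0.08 ± 0.10 and 1.67 ± 0.10 in the same order), Tmem74b (0.97 ± 0.11 and 1.63 ± 0.11) and Rasl12 (0.49 ± 0.19 and 1.59 ± 0.19). Ppp1r3g, a glycogen-targeting phosphatase subunit gene chosen after its values were seen, changed by 1.90 ± 0.13 in dKO and 1.51 ± 0.13 in WT. The median change of the 11 genes was 0.13 in dKO and 1.51 in WT, and that of the other 209 was 0.79 in dKO and 1.53 in WT. In dKO 4 of the 11 and 107 of the 209 were called higher with DP, beside 1.01% of all genes. Changes that start near blank are understated in either genotype, and the 11 genes were chosen to start near blank in WT only. These genes were chosen on their WT values, so the medians are a description with no test.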
